A study of Oryctolagus cuniculus with 34 samples.

Results

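The long-term effect of a matrix gel on a repaired muscle was examined by bulk RNA sequencing of the rabbit supraspinatus, one of the muscles of the rotator cuff. Muscles treated by repair together with a gel of tissue-derived extracellular matrix (5 libraries) were set against muscles treated by repair only (5 libraries). These 10 libraries, numbered 1 to 5 in each group, were chosen by their sample titles from the 34 of the series. Another 10 libraries of uninjured long-term supraspinatus gave the background level of each gene, and the short-term libraries were not used. Both operated groups share the injury and the repair and differ by the gel. The labels give no strain, sex, age or gel dose, and no length for the long term. Animal codes in the file names tie each operated muscle to an uninjured muscle of the same code, 10 animals in all. Apart from these codes nothing ties a library to an animal. The p-values therefore measure the spread between these libraries, which may in part be technical. The totals of the 10 libraries ran from 12719599 to 15033385 counts, and levels are given as CPM, counts scaled to library size with edgeR's TMM factors.

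After injury and repair of a rotator cuff tendon, muscle can lose fibre mass, gain fat between its fibres and gain fibrous matrix. Fibro-adipogenic progenitors, the stromal cells between muscle fibres, can give rise to both fat cells and matrix-producing fibroblasts. Collagens are laid down with small proteoglycans that organise their fibrils and with enzymes that cross-link them, and macrophages clear debris and signal to the stroma.

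All 20 long-term libraries carried muscle RNA: the 11 fibre markers in the files summed to 172735 to 326164 CPM with the gel, 136438 to 202175 CPM after repair only and 129481 to 225931 CPM in uninjured muscle. Gel library 1 stood far from every other long-term library. Its median correlation with the others was 0.89, where theirs ran from 0.96 to 0.977, and on the first principal component it lay at 115.1, where the other 19 lay between -14.2 and 25.8. Of the 11625 genes tested it was above all 19 others in 3393 (29.2%) and below them in 3943 (33.9%), while the other libraries held an extreme value in 358 to 1844 genes (median 659). The 100 most abundant genes took 58.7% of its counts, against 46.1% to 53.5% elsewhere. Its fibre markers moved apart: 9 of the 11 were above all other 19 libraries, among them ACTA1 (127400 CPM against 32560 to 69640 CPM), CKM (35570 CPM against 7840 to 18290 CPM) and DES (12750 CPM against 3426 to 5324 CPM), while the giant genes NEB (1740 CPM against 7521 to 15140 CPM) and TTN (15730 CPM against 24930 to 45940 CPM) were below all of them. The 12 erythroid markers in the files, 6 of them under a mean of 1 CPM, summed to 564.5 CPM in gel 1, against 204.3 to 229.8 CPM in the other gel libraries, 146 to 210.6 CPM after repair only and 159 to 252.6 CPM in uninjured muscle. The part of these features in the results was not tested. Each difference below is therefore also given without gel 1.

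**Figure D1:**
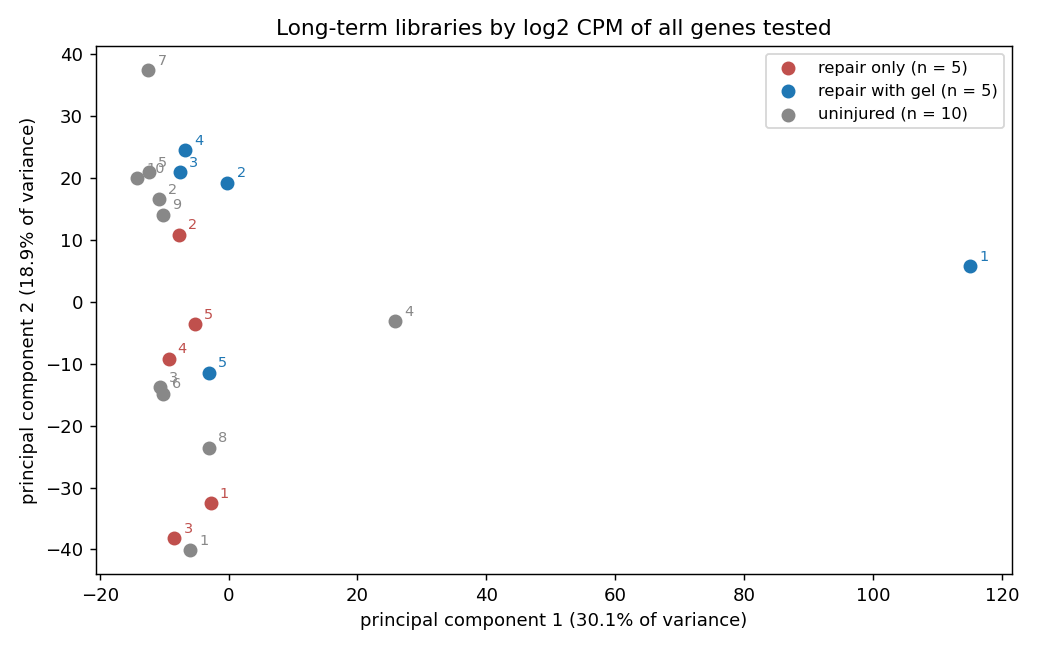
The first and second principal components of log2 CPM over the 11625 genes tested are plotted for the 5 repair-only, 5 gel and 10 uninjured long-term libraries, each point labelled with its replicate number. Gel 1 sits alone at 115.1 on the first component, and the remaining gel and repair-only libraries lie within the range of the uninjured ones on both components.

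No gene passed the test of gel against repair only. edgeR's quasi-likelihood test over all 20 long-term libraries called 0 of 11625 genes (0%) at a Benjamini-Hochberg adjusted p of 0.05, and the smallest adjusted p was 0.302, shared by 572 genes. At an unadjusted p under 0.05, 919 genes were higher with the gel (7.91%) and 734 lower (6.31%). DESeq2 called 7 genes, namely XBP1 (higher) and, all lower, KLF5, THBS1, MAP3K7CL, NR4A3, TSPAN8 and LOC100008880, and limma's voom, with a quality weight for each sample, called 0. Every gel library was above every repair-only library in 102 genes (0.877%), and below every one of them in 51 (0.439%). In the same test on the uninjured muscles, those of the gel animals against those of the repair animals, 214 genes were higher (1.84%) and 195 lower (1.68%) at an unadjusted p under 0.05, with 0 called. Of a panel of 30 genes of fat, matrix, fibre and stress, 26 were tested and 0 called. All differences below are fitted log2 values, gel minus repair only, each followed by its standard error (SE) and by its value without gel 1, and none had an edgeR adjusted p under 0.302.

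Gel 1 weighed more on the higher genes than on the lower ones. It was the highest of the 10 operated libraries in 802 of the 919 higher genes (87.3%) and the lowest in 446 of the 734 lower genes (60.8%). Without it edgeR again called 0 genes, with a smallest adjusted p of 0.493, and the counts at an unadjusted p under 0.05 were 445 higher (3.79%) and 695 lower (5.92%). Of the 919 higher genes 297 were still higher at that p (32.3%), and of the 734 lower genes 464 were still lower (63.2%). The groups then did not overlap in 147 genes above (1.25%) and 103 below (0.877%). Complete separation arises by chance more often with a smaller group, so these counts cannot be set against those with gel 1 included. Without repair 3 the counts were 477 higher and 419 lower, and without repair 1 they were 749 higher and 487 lower. When each operated muscle was taken relative to its animal's own uninjured muscle, 292 genes were higher (2.51%) and 429 lower (3.69%), with 0 called.

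The repair-only libraries were not alike. Against the range of the 10 uninjured muscles, repair 1 was above it in 2144 of the 11625 genes (18.4%) and below it in 1317 (11.3%). Repair 3 was so in 2034 (17.5%) and 1889 (16.2%), and repair 4 in 1357 (11.7%) and 1158 (9.96%). Repair 5 lay outside in 1023 (8.8%) and 1028 genes (8.84%), and repair 2 in 419 (3.6%) and 640 (5.51%). Gel libraries 2 to 5 were above the uninjured range in 817 to 1063 genes (7.03% to 9.14%). They were below it in 684 to 1181 (5.88% to 10.2%), and gel 1 lay outside in 3894 (33.5%) and 4258 (36.6%). A further uninjured muscle would also fall outside the range of these 10 in some genes. The counts are therefore not all departures from uninjured muscle. The gene groups that follow differ in which repair-only libraries carry them: repair 1 and 3 had the most fat cell RNA, repair 1 and 4 the most collagen RNA, repair 4 the most THBS4 and FMOD RNA and repair 5 the most immediate early RNA.

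**Figure D2:**
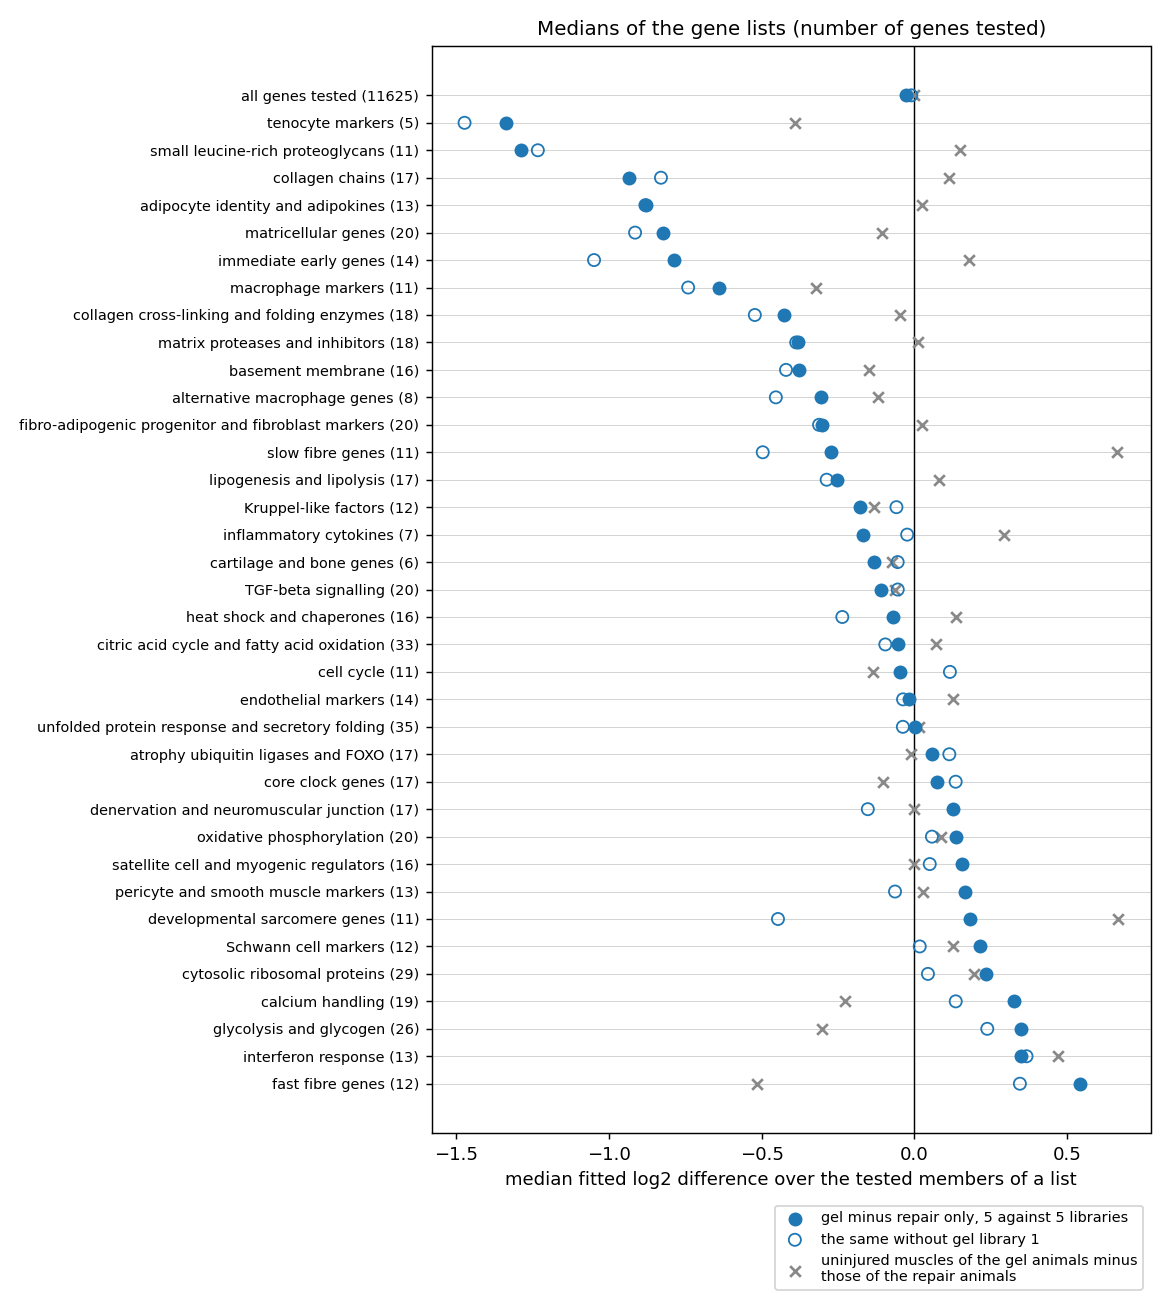
Each row is a list of genes with its number of members tested, and the horizontal axis is the median fitted log2 difference. Filled circles give gel minus repair only, open circles the same without gel 1, and crosses the uninjured muscles of the gel animals minus those of the repair animals. Collagen chains (-0.94), small proteoglycans (-1.29) and adipocyte genes (-0.88) lie far below the median of all genes (-0.03), and the open circle of developmental sarcomere genes (-0.45) lies on the other side of 0 from its filled one (0.18).

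Collagen chain genes, which encode the fibrils and networks of the matrix, had lower fitted values with the gel in 17 of 17 members, with a median of -0.94 (-0.83 without gel 1). Over all genes tested 53.6% were below 0, with a median of -0.03. At an unadjusted p under 0.05, 9 of the 17 were lower and 0 higher, where 6.31% of all genes were lower, and 0 of the 17 had groups that did not overlap. With all libraries, the background for every list below is the same: 53.6% of all genes below 0, 6.31% lower and 7.91% higher at that p. In bulk tissue, fewer cells of a type and less RNA of a gene per cell cannot be told apart. COL1A1, the main chain of the fibrils of tendon and scar, stood at 373, 92.8, 267, 801 and 185 CPM in repair-only libraries 1 to 5 and at 198, 147, 100.2, 152 and 106 CPM in gel libraries 1 to 5, against 49.3 to 249.5 CPM in uninjured muscle. Repair 1, 3 and 4 lay above all 10 uninjured muscles, repair 5 and all gel libraries lay within their range, and repair 2 was lower than every gel library. The difference was -1.29 (SE 0.45, -1.44 without gel 1), and -0.71 without repair 4.

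COL12A1, a collagen of fibril surfaces in tendon and fascia, stood at 21.9, 4.77, 14.7, 51.8 and 6.58 CPM after repair only. With the gel COL12A1 was at 3.43, 5.49, 8.78, 4.98 and 3.85 CPM, with 2.71 to 9.43 CPM in uninjured muscle. Here too repair 1, 3 and 4 were above every uninjured muscle, and the groups overlapped through repair 2 and 5 (-1.91, SE 0.50, -1.79 without gel 1, -1.17 without repair 4). COL11A1, a minor fibril chain of cartilage and tendon, was 3.29, 0.159, 2.15, 23.6 and 2.499 CPM after repair only. With the gel COL11A1 was 0.191, 0.0687, 1.46, 0.2198 and 1.06 CPM (-3.38, SE 0.88, -3.18 without gel 1, and -1.75 without repair 4). Among the other chains, COL14A1, also of the fibril surface, differed by -1.31 (SE 0.44, -1.22 without gel 1), COL22A1, of the muscle-tendon junction, by -2.79 (SE 0.94, -2.88 without gel 1), COL1A2 by -0.98 (SE 0.38, -0.98 without gel 1) and COL5A2 by -0.83 (SE 0.30, -0.70 without gel 1). COL3A1, the chain of early repair matrix, was 828, 225, 539.8, 342 and 311 CPM after repair only and 269.6, 331, 236, 476 and 276 CPM with the gel (-0.50, SE 0.38, -0.44 without gel 1, and -0.16 without repair 1). The type VI chains, which surround muscle fibres, were closer to 0 with all libraries. COL6A1 gave -0.26 (SE 0.25, -0.41 without gel 1), COL6A2 -0.20 (SE 0.32, -0.55 without gel 1) and COL6A3 -0.29 (SE 0.31, -0.26 without gel 1). Repair 4 was the highest of the 10 operated libraries in 11 of the 17 chains and repair 1 in 4. Without repair 4 the median of the list was -0.59, and the summed level of the chains, 2298, 785, 1606, 2447 and 999 CPM in repair-only libraries 1 to 5, was above the uninjured range of 444 to 1645 CPM in repair 1 and 4 and in 0 gel libraries.

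Enzymes that fold, cross-link and process collagen were lower in 15 of 18 members (median -0.43, -0.52 without gel 1), 6 of them at an unadjusted p under 0.05. LOX, the lysyl oxidase that starts cross-linking, stood at 28.4, 6.596, 10.9, 26.01 and 14.5 CPM after repair only. With the gel LOX was at 4.1, 6.53, 11.6, 6.15 and 7.55 CPM (-1.26, SE 0.36, -1.12 without gel 1), with 3.403 to 10.2 CPM in uninjured muscle. PLOD2, which hydroxylates lysines of collagen ends for cross-links, was 10.2, 4.37, 8.47, 10.3 and 4.83 CPM after repair only. With the gel PLOD2 was 1.91, 5.15, 3.31, 3.74 and 3.63 CPM (-1.10, SE 0.29, -0.95 without gel 1). In both genes repair 1 and 4 were the highest libraries and gel 1 the lowest, and repair 2 lay among the gel libraries. LOXL2 (-1.07, SE 0.37, -1.21 without gel 1), LOXL3 (-0.97, SE 0.32, -0.93 without gel 1), BMP1, which cleaves the ends of procollagen (-0.42, SE 0.14, -0.42 without gel 1), and P4HA1, the prolyl hydroxylase (-0.40, SE 0.15, -0.28 without gel 1), completed the 6. Without repair 1 the median of the list was -0.29.

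Small leucine-rich proteoglycans, which bind collagen fibrils and set their width, were lower in 11 of 11 members, 8 at an unadjusted p under 0.05. Their median was -1.29, -1.23 without gel 1 and -0.88 without repair 4. In the uninjured muscles of the same animals the median was 0.15. FMOD, fibromodulin, abundant in tendon, stood at 22.7, 1.19, 13.9, 236 and 21 CPM after repair only and at 10.6, 0.755, 23.8, 1.099 and 3.399 CPM with the gel (-2.90, SE 1.03, -3.03 without gel 1). Repair 4 was about an order of magnitude above the next library, gel 3, and without it the difference was -0.90. KERA, keratocan, was 7.67, 0.477, 2.35, 22.9 and 7.33 CPM after repair only. With the gel KERA was 0.286, 0.275, 2.54, 0.0733 and 1.66 CPM (-3.06, SE 0.75, -2.84 without gel 1, and -2.19 without repair 4). OGN, osteoglycin, was 264, 69.2, 177, 182 and 97.1 CPM after repair only. With the gel OGN was 12.1, 89.8, 72.3, 78.4 and 70.2 CPM (-1.29, SE 0.40, -1.02 without gel 1). Repair 1, 3, 4 and 5 were above every gel library in OGN and every uninjured muscle (29.7 to 84.6 CPM), and repair 2 lay below gel 2 to 5. DCN, decorin, the most abundant of the family here, was 800.3, 365, 381, 519.6 and 467 CPM after repair only and 129, 414, 381, 357 and 344 CPM with the gel (-0.64, SE 0.29, -0.43 without gel 1). Gel 1 was the lowest in DCN and repair 1 the highest, and the difference was -0.42 without repair 1. CHAD (-1.86, SE 0.60, -2.05 without gel 1), ASPN (-1.36, SE 0.47, -1.23 without gel 1), PRELP (-1.35, SE 0.48, -1.57 without gel 1) and OMD (-1.07, SE 0.49, -0.84 without gel 1) also had an unadjusted p under 0.05, and LUM, lumican (-0.69, SE 0.46, -0.56 without gel 1), did not.

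Tendon genes were lower as well, with a large share of the difference in repair 4. THBS4, a thrombospondin of tendon, stood at 99.5, 36.3, 66.8, 409 and 65.1 CPM after repair only. With the gel THBS4 was at 68.7, 35.03, 63.7, 42.1 and 33.5 CPM, with 23.7 to 69.5 CPM in uninjured muscle. Repair 4 was the highest of all and repair 1 the next, the other 3 lay within the gel range, and the difference of -1.48 (SE 0.49, -1.63 without gel 1) was -0.46 without repair 4. CILP, a cartilage matrix protein also made in tendon, was 49.8, 14.5, 48, 38.7 and 19.2 CPM after repair only. With the gel CILP was 27.5, 10.8, 17.9, 13.5 and 19.9 CPM (-0.93, SE 0.33, -1.13 without gel 1). The tenocyte list had 5 of 5 tested members below 0 (median -1.34, -1.47 without gel 1, -0.71 without repair 5), but EGR1 and EGR2 in it are also immediate early genes, and TNMD and MKX, defining markers of tendon cells, were too low to test. Among cartilage and bone genes, of which 6 of the 16 in the files were tested, 3 were above 0 and 3 below, with a median of -0.13 (-0.05 without gel 1). The lower members with an unadjusted p under 0.05 were COL2A1 and RUNX2. COL2A1, the main cartilage collagen, was 22.8, 7.23, 19.97, 63.5 and 11.9 CPM after repair only and 13.6, 9.82, 7.01, 9.96 and 7.93 CPM with the gel (-1.38, SE 0.42, -1.53 without gel 1, -0.68 without repair 4). RUNX2, a regulator of bone formation, gave -1.04 (SE 0.40, -0.92 without gel 1) and -0.41 without repair 4. The part of tendon or cartilage tissue in the matrix differences was not tested. With repair 4 left out, the medians of collagen chains and small proteoglycans were -0.59 and -0.88.

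**Figure D3:**
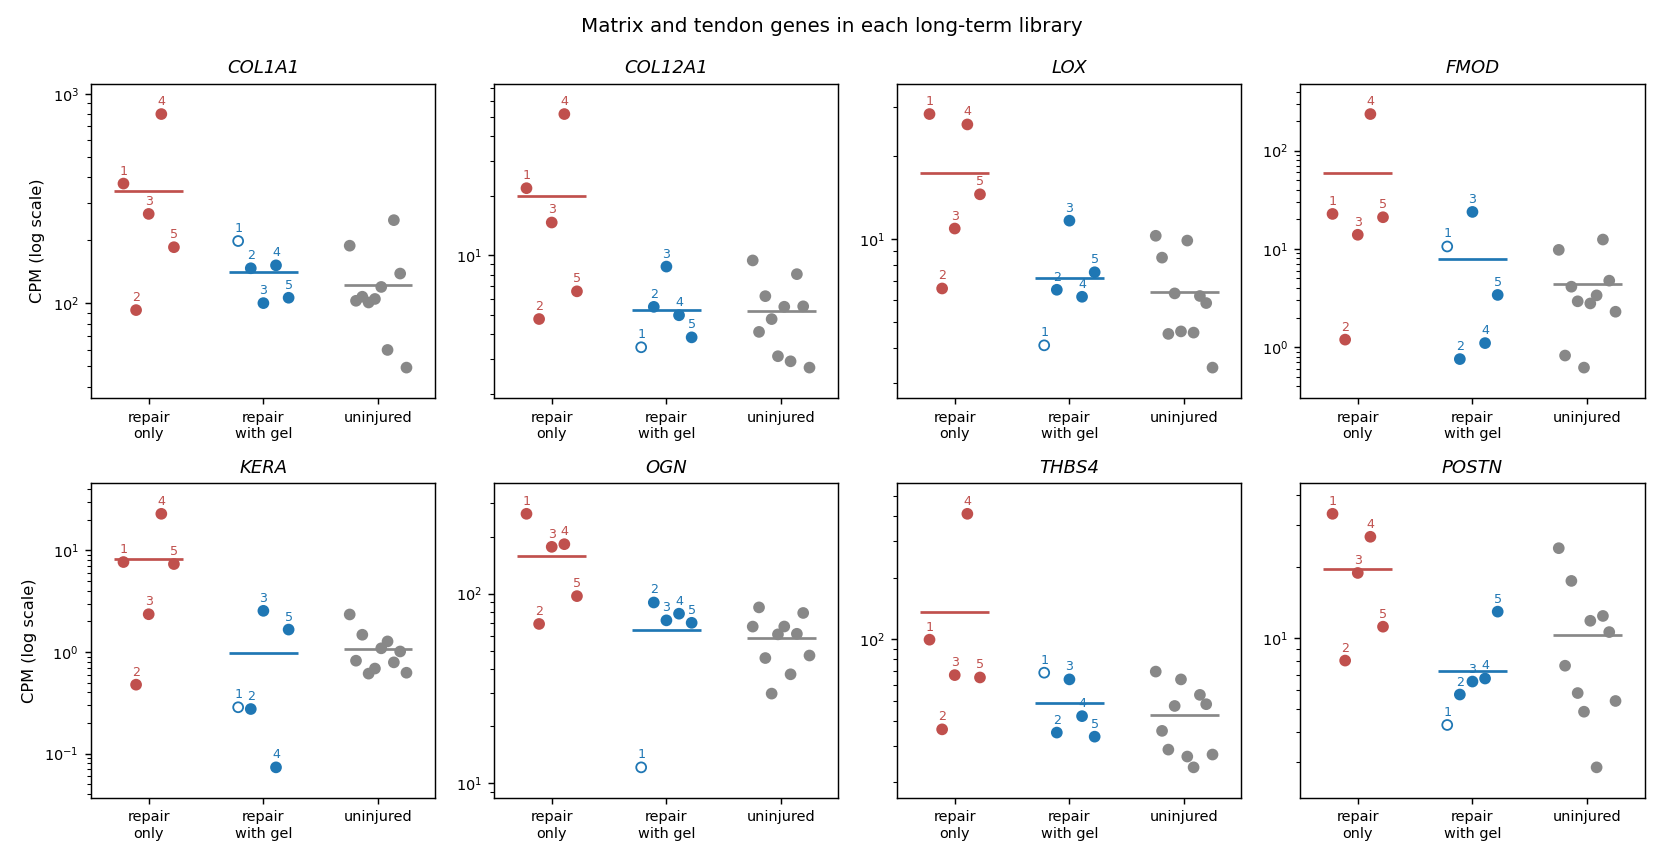
CPM on a log axis of 8 matrix and tendon genes in each of the 5 repair-only, 5 gel and 10 uninjured libraries, with lines at group means and numbers marking replicates (gel 1 open). Repair 4 is the highest library for COL1A1, COL12A1, FMOD, KERA and THBS4, repair 1 for LOX, OGN and POSTN, and repair 2 lies within or just below the range of the gel libraries in all 8.

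Matricellular genes, whose products signal within the matrix, were lower in 19 of 20 members (median -0.82, -0.91 without gel 1), 9 at an unadjusted p under 0.05 (12 without gel 1). THBS1, thrombospondin 1, an activator of TGF-beta, stood at 30.7, 6.75, 28.6, 107 and 34.4 CPM after repair only. With the gel THBS1 was at 4.86, 9.27, 15.3, 6.37 and 12.2 CPM, with 6.74 to 21.1 CPM in uninjured muscle. Its difference was -2.10 (SE 0.51, -1.94 without gel 1), and -1.38 without repair 4, and repair 2 was below 3 gel libraries. POSTN, periostin, was 33.5, 8.03, 18.8, 26.8 and 11.2 CPM after repair only. With the gel POSTN was 4.29, 5.77, 6.54, 6.74 and 12.9 CPM (-1.44, SE 0.48, -1.29 without gel 1), and in uninjured muscle it covered 2.84 to 23.9 CPM. TNC, tenascin C (-1.26, SE 0.40, -1.24 without gel 1), MFAP4, a microfibril protein (-1.36, SE 0.43, -1.58 without gel 1), VCAN, versican (-1.07, SE 0.39, -1.03 without gel 1), and FN1, fibronectin (-0.68, SE 0.31, -0.64 without gel 1), were lower too. In the uninjured muscles of the gel animals TNC and FN1 were at -0.43 and -0.24 relative to those of the repair animals.

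Basement membrane genes, for the sheath around each fibre and capillary, were lower in 15 of 16 members by less (median -0.38, -0.42 without gel 1), 4 at an unadjusted p under 0.05: NID1, nidogen (-0.58, SE 0.22, -0.47 without gel 1), LAMA2, the laminin chain of the fibre surface (-0.63, SE 0.25, -0.49 without gel 1), COL4A1 (-0.46, SE 0.20, -0.50 without gel 1) and LAMA4 (-0.50, SE 0.23, -0.40 without gel 1). Matrix proteases and their inhibitors had 14 of 18 below 0 (median -0.38, -0.39 without gel 1). CTSK, a collagen-degrading cathepsin, stood at 34.1, 14.9, 27.2, 41.5 and 14.8 CPM after repair only and at 11.7, 13.4, 15.5, 13.3 and 16.5 CPM with the gel (-0.91, SE 0.24, -0.85 without gel 1), with repair 1, 3 and 4 above all other operated libraries and above the uninjured range of 11.2 to 19.9 CPM. ADAMTS9, a versican-cleaving protease, was lower in every gel library than in every repair-only one (-0.45, SE 0.20, -0.36 without gel 1). In the opposite direction MMP15, a membrane-bound metalloproteinase, was 27.5, 28.9, 25.1, 25.3 and 27.3 CPM after repair only. With the gel MMP15 was 53.9, 34, 36.6, 34.95 and 28.4 CPM (0.49, SE 0.14, 0.32 without gel 1), and PLAT, a plasminogen activator, gave 0.72 (SE 0.32, 0.46 without gel 1).

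TGF-beta signalling genes had 14 of 20 members below 0 and a median of -0.11 (-0.05 without gel 1, -0.03 without repair 4). LTBP2, a latent TGF-beta binding protein of microfibrils, stood at 8.83, 3.73, 9.48, 15.2 and 5.67 CPM after repair only and at 4.39, 3.64, 4.004, 3.59 and 5.51 CPM with the gel (-1.02, SE 0.31, -1.03 without gel 1). The co-receptor gene TGFBR3 was 43.6, 15.4, 28.8, 22.6 and 19.3 CPM after repair only. With the gel TGFBR3 was 6.198, 18.6, 17.3, 16.4 and 16.2 CPM (-0.79, SE 0.27, -0.60 without gel 1), the ligand gene TGFB2 gave -0.79 (SE 0.28, -0.56 without gel 1) and the receptor gene TGFBR2 -0.43 (SE 0.20, -0.40 without gel 1), while SMAD3, which carries the signal to the nucleus, gave 0.37 (SE 0.16, 0.36 without gel 1). Markers of fibro-adipogenic progenitors and fibroblasts were lower in 18 of 20 members, where 53.6% of all genes were below 0, with a median of -0.30 (-0.31 without gel 1, -0.14 without repair 1). At an unadjusted p under 0.05, 3 of the 20 were lower, where 6.31% of all genes were. PDGFRA, the defining surface receptor of these progenitors, was 36.04, 16.3, 20.1, 16.5 and 12.6 CPM after repair only. With the gel PDGFRA was 10.7, 18.4, 19.2, 18.2 and 15.9 CPM. Its difference of -0.30 (SE 0.27, -0.18 without gel 1) was 0.01 without repair 1 and 0.05 relative to each animal's own uninjured muscle. DPT, dermatopontin, was 126, 36.2, 99.97, 61.5 and 38.9 CPM after repair only and 40.9, 54.4, 43.1, 42.3 and 42.5 CPM with the gel (-0.70, SE 0.27, -0.67 without gel 1, -0.41 without repair 1). ADAM12, a protease gene of activated progenitors, was 3.42, 0.636, 3.56, 2.68 and 0.9998 CPM after repair only. With the gel ADAM12 was 0.191, 0.206, 0.847, 1.03 and 0.604 CPM (-1.96, SE 0.56, -1.76 without gel 1).

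Fat cell genes were lower with the gel in 11 of 13 tested members, with a median of -0.88 (-0.88 without gel 1, -0.56 without repair 1) and 8 at an unadjusted p under 0.05. In uninjured muscle of the same animals the median was 0.02. FABP4, the fatty acid binding protein of fat cells, stood at 364, 56.3, 309, 113 and 87.4 CPM after repair only. With the gel FABP4 was at 67.2, 106, 61.5, 54.8 and 69.7 CPM, against 47.2 to 80.2 CPM in uninjured muscle. Repair 1 and 3 were well above all other libraries, repair 4 and 5 and gel 2 were also above the uninjured range, and repair 2 and gel 1, 3, 4 and 5 lay within it. The difference was -1.37 (SE 0.36, -1.35 without gel 1), -0.97 without repair 1 and -1.06 relative to each animal's own uninjured muscle.

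ADIPOQ, adiponectin, was 453, 131, 324, 213 and 154 CPM after repair only and 73.7, 176, 197, 126 and 121 CPM with the gel (-0.88, SE 0.29, -0.72 without gel 1, -0.57 without repair 1), with 94.4 to 169 CPM in uninjured muscle. Repair 1, 3 and 4 were above all gel libraries, and repair 2 and 5 lay among them. LEP, leptin, was low everywhere, at 17.4, 1.03, 5.31, 3.34 and 1.25 CPM after repair only. With the gel LEP was 0.858, 4.12, 1.77, 1.54 and 0.378 CPM. All 5 repair-only libraries and gel 1 to 4 were above the highest uninjured muscle in LEP (0.156 to 0.826 CPM). Its difference of -1.70 (SE 0.61, -1.53 without gel 1) was -0.65 without repair 1, and the uninjured muscles of the gel animals were at -0.67 relative to those of the repair animals. PPARG, the master regulator of fat cell formation, was 21.9, 3.89, 14.1, 5.5 and 3.33 CPM after repair only. With the gel PPARG was 5.53, 7.005, 5.24, 3.297 and 3.48 CPM (-0.995, SE 0.41, -1.04 without gel 1, -0.45 without repair 1). Of the genes of the fat droplet and its filling, THRSP gave -1.34 (SE 0.55, -1.35 without gel 1), CIDEA -1.09 (SE 0.49, -1.46 without gel 1), CIDEC -1.15 (SE 0.53, -1.33 without gel 1) and the fatty acid transporter gene CD36 -0.73 (SE 0.30, -0.60 without gel 1). The summed fat cell genes were 2785, 1557, 2547, 1650 and 2009 CPM after repair only and 1566, 1619, 1621, 1723 and 1884 CPM with the gel, and exceeded the uninjured range of 1454 to 2010 CPM in repair 1 and 3 alone. Enzymes of fat synthesis and breakdown, many of which muscle fibres also use, had 12 of 17 below 0 and a median of -0.25 (-0.29 without gel 1, 0.0028 without repair 1). Among them ELOVL6, which lengthens fatty acids, gave -1.24 (SE 0.43, -1.04 without gel 1), and SREBF1, a regulator of lipid synthesis, 0.45 (SE 0.29, 0.08 without gel 1).

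Macrophage markers were low in all long-term libraries and lower with the gel in 11 of 11 tested members (median -0.64, -0.74 without gel 1), 3 at an unadjusted p under 0.05. Without repair 1 the median was -0.17, and the uninjured muscles of the gel animals gave -0.32 relative to those of the repair animals. Their summed level was 74.3, 20.1, 47.3, 37.7 and 16.4 CPM after repair only and 28.3, 22.5, 22.4, 14.4 and 24.9 CPM with the gel, and only repair 1, 3 and 4 exceeded the uninjured range of 6.802 to 35.3 CPM. CD68, of the macrophage lysosome, stood at 3.997, 2.702, 5.11, 1.71 and 2.999 CPM after repair only and at 2.67, 2.06, 2.08, 1.76 and 2.12 CPM with the gel (-0.64, SE 0.25, -0.72 without gel 1). SPP1, osteopontin, made by lipid-laden and scar macrophages among other cells, was 4.32, 0.715, 4.101, 13.8 and 1.17 CPM after repair only. With the gel SPP1 was 1.62, 0.962, 1.23, 0.513 and 1.36 CPM (-2.09, SE 0.63, -2.24 without gel 1, -1.20 without repair 4). Alternative macrophage genes were below 0 in 7 of 8 tested members, 2 at an unadjusted p under 0.05. Their median of -0.31 (-0.45 without gel 1) was 0.09 without repair 1, the highest operated library in 6 of the 8. The 2 were MRC1 and LYVE1. MRC1, the mannose receptor of resident macrophages, was 10.1, 1.67, 4.101, 2.304 and 2.17 CPM after repair only. With the gel MRC1 was 0.286, 1.58, 1.69, 1.76 and 2.64 CPM (-1.34, SE 0.53, -1.08 without gel 1, -0.67 without repair 1), and LYVE1 gave -0.89 (SE 0.29, -0.80 without gel 1). In the uninjured muscles of the gel animals MRC1 and LYVE1 were at -0.72 and -0.60 relative to those of the repair animals. Relative to each animal's own uninjured muscle the differences were -0.61 and -0.25. SIGLEC1, a sialic acid receptor of macrophages, which was outside the lists, did not overlap between groups (-0.64, SE 0.17, -0.57 without gel 1) and was chosen after its values were seen.

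Among the 15 inflammatory cytokine genes in the files 7 could be tested, of which 5 were below 0 and 2 above. Their median was -0.17 (-0.02 without gel 1, 0.03 without repair 1), and 1 of them, IL18, had an unadjusted p under 0.05. IL18, a cytokine released by the inflammasome, stood at 23.3, 4.53, 20.03, 23.1 and 5.83 CPM after repair only and at 2.29, 7.42, 7.32, 3.59 and 5.36 CPM with the gel, with 2.36 to 7.85 CPM in uninjured muscle. Repair 1, 3 and 4 were about as high as each other in IL18 and above all other libraries, and repair 2 and 5 lay among the gel ones (-1.56, SE 0.41, -1.38 without gel 1). IL1A, IL1B, IL6, TNF and CCL2 were too low to test, as were 13 of the 14 lymphocyte markers in the files. ANXA1, annexin A1, a mediator of the resolution of inflammation, was 47.3, 13.8, 34.4, 23.7 and 15.4 CPM after repair only. With the gel ANXA1 was 7.63, 15.9, 12.4, 9.74 and 12.8 CPM (-1.20, SE 0.29, -1.08 without gel 1). ANXA5, which binds exposed phosphatidylserine, was 120, 45.9, 110.5, 87.5 and 56.7 CPM after repair only. With the gel ANXA5 was 42.4, 46.98, 44.8, 45.9 and 50.1 CPM (-0.87, SE 0.22, -0.84 without gel 1), gel libraries lying close together and repair 1, 3 and 4 above the uninjured range of 32.4 to 62.3 CPM. HP, haptoglobin, which fat cells also make, was 80.8, 18.6, 96.9, 49.05 and 28.1 CPM after repair only and 15.1, 9.41, 17.8, 8.13 and 26.97 CPM with the gel (-1.82, SE 0.46, -1.81 without gel 1). MNDA, an interferon-inducible nuclear protein, was 16.3, 7.07, 13.4, 12.9 and 11.9 CPM after repair only. With the gel MNDA was 2.002, 7.76, 6.78, 5.64 and 6.27 CPM (-1.11, SE 0.28, -0.90 without gel 1).

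**Figure D4:**
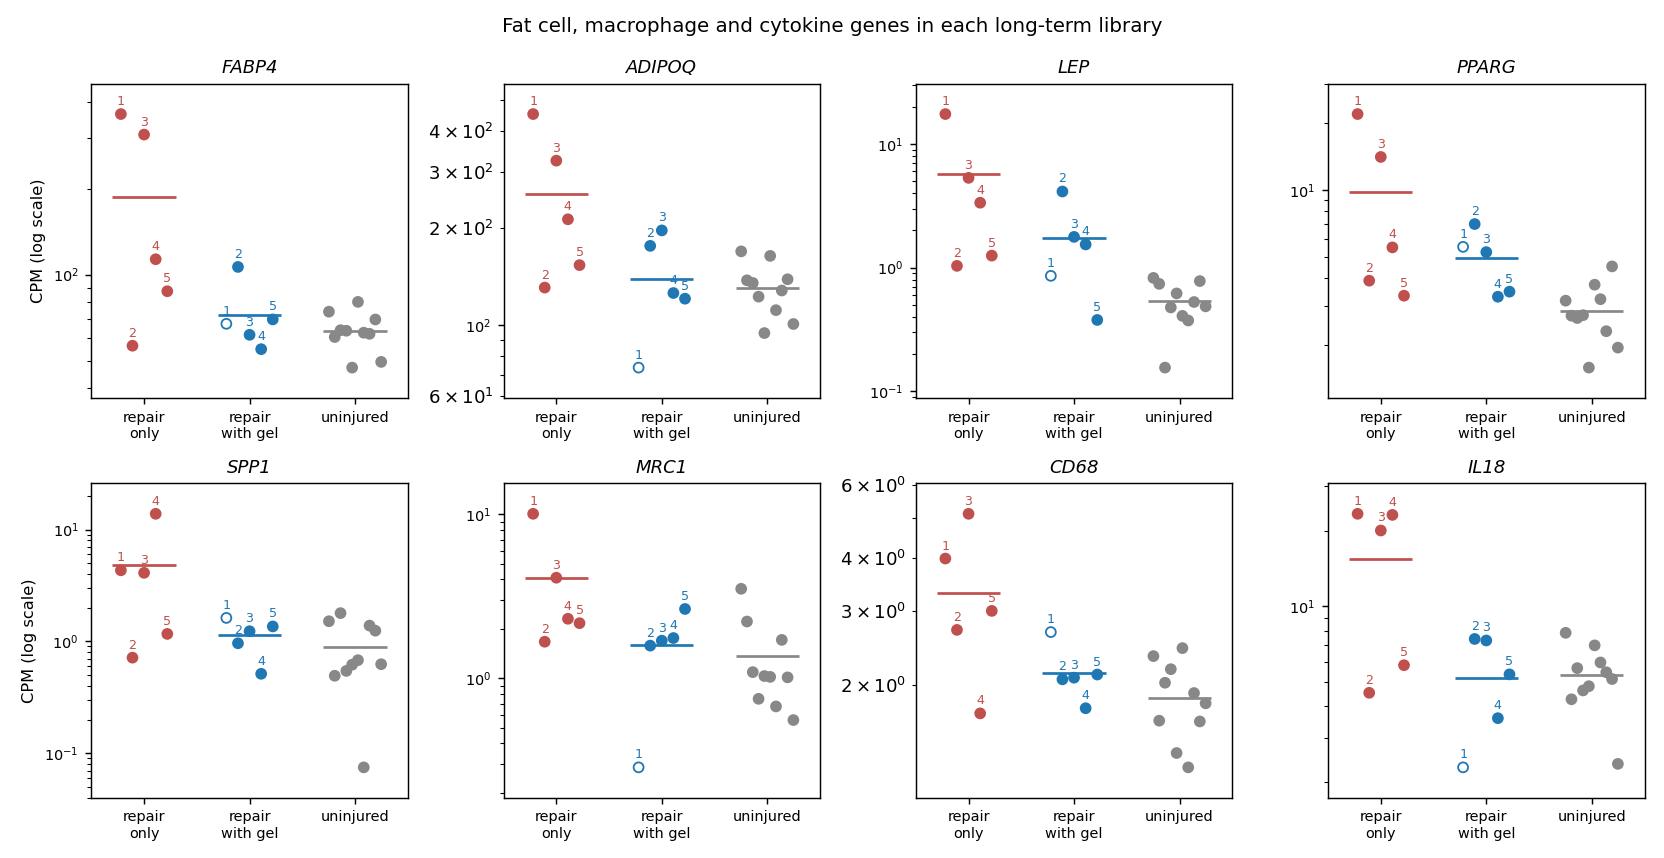
CPM on a log axis of 8 fat cell, macrophage and cytokine genes in each of the 5 repair-only, 5 gel and 10 uninjured libraries, with lines at group means and numbers marking replicates (gel 1 open). Repair 1 and 3 are the highest libraries for FABP4, ADIPOQ, LEP and PPARG, repair 4 for SPP1, and the gel libraries overlap with repair 2 and 5 in each of the 4 fat cell genes.

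XBP1, which encodes a regulator of secretory cells and of the response to unfolded proteins, had the smallest p of all genes, 2.98e-05 unadjusted (edgeR adjusted p = 0.302). It stood at 28.1, 29.2, 25.4, 31.1 and 32.7 CPM in repair-only libraries 1 to 5 and at 101, 56.3, 50.7, 63.8 and 51.1 CPM in gel libraries 1 to 5. All 5 gel libraries were above all 5 repair-only ones, which lay within a narrow band, and gel 1 was the highest. The uninjured muscles covered 27.1 to 59.4 CPM and overlapped with both groups. The difference was 1.14 (SE 0.22, 0.92 without gel 1), and 0.67 relative to each animal's own uninjured muscle. The uninjured muscles of the gel animals were at 0.44 relative to those of the repair animals. Its adjusted p by DESeq2 was 0.0041. The list of genes of the unfolded protein response and of folding in the secretory pathway, XBP1 included, was balanced: 18 of 35 were above 0, where 46.4% of all genes were, with a median of 0.0027 (-0.04 without gel 1), and 4 were higher and 0 lower at an unadjusted p under 0.05. HSPA5, the chaperone BiP and a main target of this response, was 147, 154, 184, 173 and 164 CPM after repair only. With the gel HSPA5 was 258, 168, 171, 158 and 228 CPM (0.26, SE 0.14, 0.14 without gel 1). EDEM1, which passes misfolded glycoproteins on to degradation (0.43, SE 0.16, 0.23 without gel 1), CREB3L2, a membrane-bound transcription factor of the secretory pathway (0.41, SE 0.16, 0.46 without gel 1), and SRPRB, of the signal recognition receptor (0.35, SE 0.15, 0.33 without gel 1), were the other 3 that were higher at that p.

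Next to XBP1, further genes led the higher side. TMEM183A (0.59, SE 0.14, 0.51 without gel 1), a membrane protein gene, PPP1R37 (0.66, SE 0.16, 0.46 without gel 1), for a regulator of protein phosphatase 1, and MIF4GD (0.64, SE 0.17, 0.38 without gel 1), for a factor in histone mRNA translation, did not overlap between the groups. PPP1R37 was 13.7, 13.7, 12.2, 13.9 and 13.4 CPM after repair only and 32.8, 18.1, 20.02, 19.6 and 15.5 CPM with the gel, gel 1 being the highest. COLGALT2, which adds galactose to collagen, was 2.45, 1.35, 2.56, 1.56 and 1.17 CPM after repair only. With the gel COLGALT2 was 4.96, 4.46, 5.698, 6.37 and 3.63 CPM (1.45, SE 0.38, 1.45 without gel 1). It did not overlap either, but the uninjured muscles of the gel animals were higher by 1.06 than those of the repair animals, and relative to the own uninjured muscle the difference was 0.47. WNT5B, a Wnt ligand, was 4.38, 6.91, 3.56, 6.17 and 5.92 CPM after repair only. With the gel WNT5B was 21.4, 10.9, 7.78, 15.02 and 6.72 CPM (1.20, SE 0.30, 0.91 without gel 1), with a difference of -0.0024 in uninjured muscle. At the head of this side were also CYP27A1, a sterol hydroxylase (0.68, SE 0.18, 0.57 without gel 1), AIFM3, a mitochondrial flavoprotein of the apoptosis-inducing family (2.20, SE 0.57, 1.97 without gel 1), and P4HTM, a prolyl hydroxylase of the endoplasmic reticulum (1.35, SE 0.35, 1.29 without gel 1).

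Among the lower genes KLF5, a transcription factor of proliferating and fat-forming cells, had the smallest p (1.12e-04 unadjusted, edgeR adjusted p = 0.302). It stood at 30.6, 7.47, 48.3, 30.2 and 14.5 CPM after repair only and at 4.58, 4.53, 7.85, 4.47 and 13.5 CPM with the gel, with 4.06 to 11.6 CPM in uninjured muscle. Repair 1, 3, 4 and 5 were above all gel libraries and all uninjured muscles, while repair 2 was below gel 3 and gel 5. The difference was -1.91 (SE 0.40, -1.79 without gel 1) and -1.49 relative to the own uninjured muscle. Of the 12 Kruppel-like factors 9 were below 0 (median -0.18, -0.06 without gel 1), among them KLF6 (-0.65, SE 0.22, -0.49 without gel 1) and KLF3 (-0.40, SE 0.18, -0.23 without gel 1), the latter without overlap. ECD, a regulator of the cell cycle and splicing, was 24.9, 23.5, 27.97, 21.1 and 31.5 CPM after repair only. With the gel ECD was 18.6, 17.3, 14.9, 17.3 and 19.5 CPM (-0.56, SE 0.13, -0.58 without gel 1), all gel libraries being below all repair-only ones. MAP1B, a microtubule protein of growing nerve and regenerating muscle, was 20.4, 13.9, 27.2, 27.6 and 14 CPM after repair only. With the gel MAP1B was 5.24, 12.2, 11.6, 10.6 and 13.5 CPM (-0.95, SE 0.24, -0.78 without gel 1), again without overlap, though gel 5 and repair 2 were close. MAP3K7CL gave -2.21 (SE 0.54, -2.27 without gel 1), with -0.95 in the uninjured muscles of the same animals, and RAI14, an actin-associated protein, -1.08 (SE 0.28, -0.99 without gel 1). TSPAN8, a tetraspanin of epithelia, was 3.87, 0.556, 7.66, 11.2 and 3.25 CPM after repair only and 0.381, 0.275, 1.39, 0.293 and 1.06 CPM with the gel (-2.95, SE 0.69, -2.82 without gel 1). Of the other epithelial and glandular markers, CDH1, E-cadherin, was at 0.753 CPM with the gel and 0.709 CPM after repair only on average, and 17 of the 20 in the files, EPCAM and the keratins included, were too low to test.

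**Figure D5:**
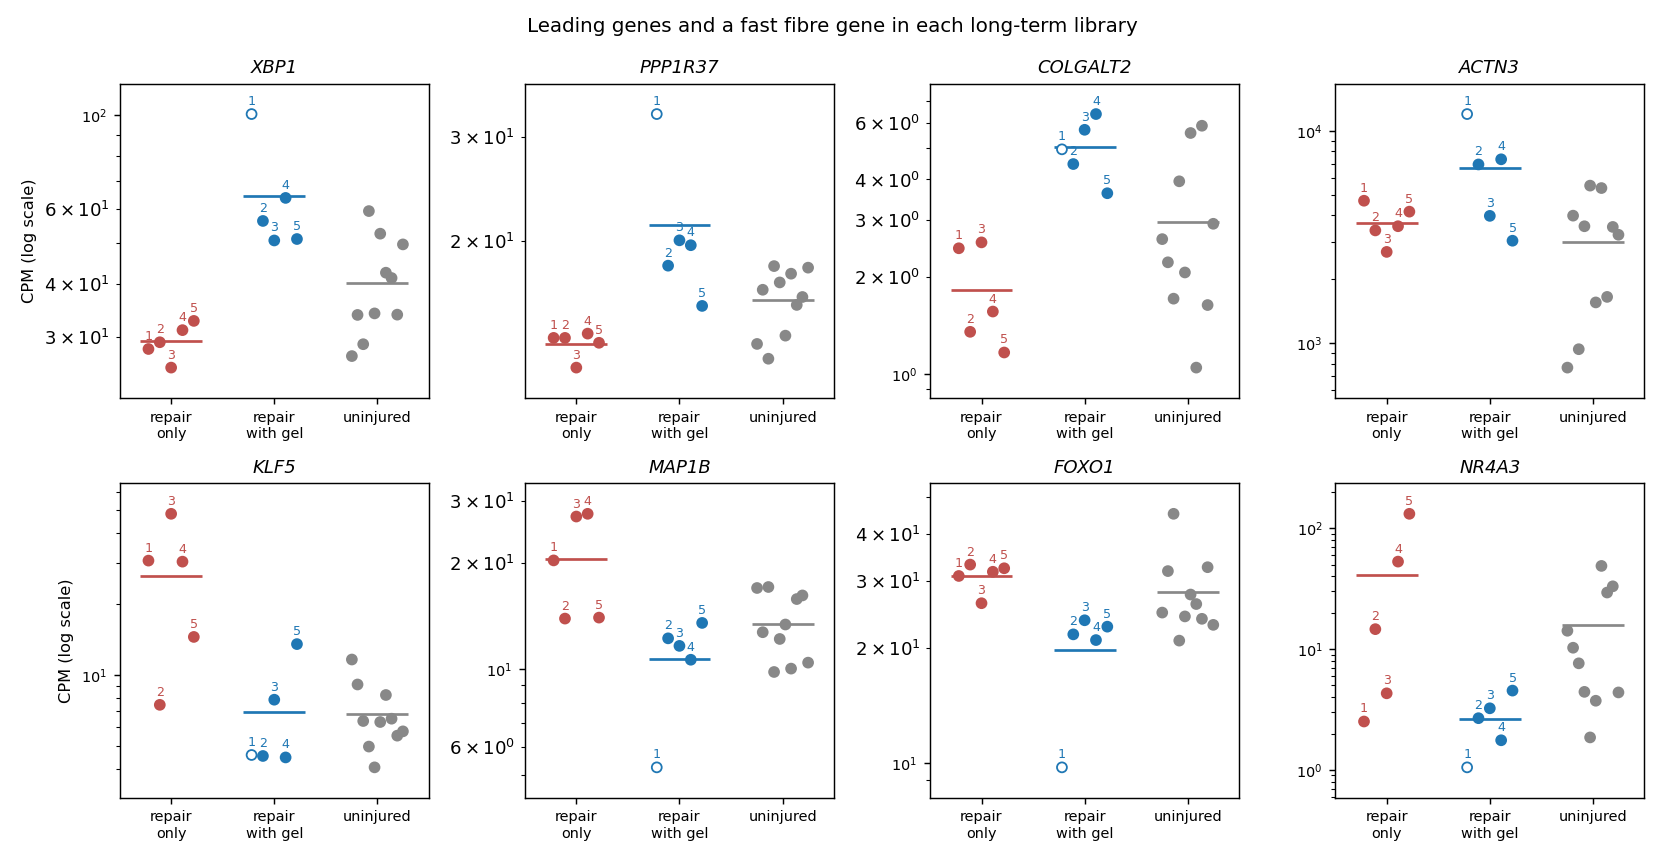
CPM on a log axis of 8 genes in each of the 5 repair-only, 5 gel and 10 uninjured libraries, with lines at group means and numbers marking replicates (gel 1 open). The gel and repair-only points do not overlap for XBP1, PPP1R37, COLGALT2, MAP1B and FOXO1 and overlap for ACTN3, KLF5 and NR4A3. The range of the uninjured points overlaps with both groups for each gene. Several points lie above it, among them repair 1, 3, 4 and 5 for KLF5 and gel 1, 2 and 4 for ACTN3.

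Fast fibre genes, of the contractile apparatus of quick, glycolytic fibres, were higher with the gel in 11 of 12 members (median 0.54, 0.35 without gel 1), with 1 at an unadjusted p under 0.05 where 7.91% of all genes were higher. ACTN3, the actinin of fast fibres, stood at 4687, 3397, 2691, 3555 and 4164 CPM after repair only. With the gel ACTN3 was at 11998, 6947, 3978, 7346 and 3038 CPM, with 767 to 5522 CPM in uninjured muscle. Gel 1, 2 and 4 were above all repair-only libraries and all uninjured muscles, gel 3 lay between repair 4 and 5, and gel 5 between repair 2 and 3 (0.85, SE 0.47, 0.53 without gel 1). PVALB, parvalbumin, the calcium buffer of fast fibres, was 1914, 3572, 919, 2315 and 2688 CPM after repair only. With the gel PVALB was 4592, 3984, 3907, 3723 and 2010 CPM (0.68, SE 0.50, 0.58 without gel 1). MYLK2, the kinase of the myosin light chain, was 903, 942, 681, 1036 and 1131 CPM after repair only and 2123, 1517, 1287, 1433 and 929 CPM with the gel (0.64, SE 0.26, 0.46 without gel 1). MYH4, the myosin of the fastest fibres, was 274, 179, 125, 138 and 152 CPM after repair only. With the gel MYH4 was 70.9, 234, 196, 252 and 114 CPM, a difference of -0.0034 (SE 0.50, 0.20 without gel 1) that ran from -0.18 without gel 4 to 0.22 without repair 1; myosin heavy chain genes are near-identical neighbours, so reads may be shared between them. The summed fast fibre genes were 85232, 109599, 57091, 101362 and 103339 CPM after repair only and 140664, 131891, 124479, 134451 and 84945 CPM with the gel. Uninjured muscles alone covered 27112 to 152416 CPM, a wider range than both operated groups together. In them the sign was the opposite: the uninjured muscles of the gel animals gave a median of -0.52 relative to those of the repair animals. Relative to the own uninjured muscle the median was 0.78.

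Slow fibre genes had 6 of 11 members below 0 (median -0.27, -0.50 without gel 1), 0 of them at an unadjusted p under 0.05, and the median was 0.66 in uninjured muscle and -1.75 relative to the own uninjured muscle. Glycolysis and glycogen genes, which fuel fast fibres, were above 0 in 22 of 26 members (median 0.35, 0.24 without gel 1), 0 of them at an unadjusted p under 0.05; PFKM, the pacing enzyme of muscle glycolysis, gave 0.55 (SE 0.27, 0.41 without gel 1) and PYGM, which releases glucose from glycogen, 0.53 (SE 0.29, 0.30 without gel 1). Their median in uninjured muscle was -0.30. Calcium handling genes had 14 of 19 above 0, and their median of 0.33 was 0.14 without gel 1. CACNG1, a subunit of the voltage sensor channel, was 152, 186, 128, 194 and 196 CPM after repair only. With the gel CACNG1 was 457, 239, 238, 263 and 141 CPM (0.64, SE 0.25, 0.36 without gel 1), with gel 5 below all repair-only libraries but repair 3. SYPL2 (0.48, SE 0.19, 0.27 without gel 1), JPH2 (0.43, SE 0.19, 0.28 without gel 1) and CACNA1S (0.64, SE 0.28, 0.31 without gel 1), all of the junction that couples excitation to contraction, also had a p under 0.05, and 0 of the list's members had it without gel 1.

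Mitochondrial and ribosomal genes were close to the median of all genes once gel 1 was left out. Oxidative phosphorylation genes were above 0 in 16 of 20 members with a median of 0.14, which was 0.06 without gel 1. Their summed level was 9813 CPM in gel 1, 6804 to 6853 CPM in gel 2 to 4, 8129 CPM in gel 5 and 5822 to 7910 CPM after repair only. NDUFS3, a subunit of complex I, was 113, 149.9, 76.1, 113 and 131 CPM after repair only and 233, 132, 128, 142 and 148 CPM with the gel (0.43, SE 0.17, 0.24 without gel 1). Genes of the citric acid cycle and of fatty acid oxidation had a median of -0.05 (-0.10 without gel 1), and IDH3A, of the cycle's isocitrate dehydrogenase, gave 0.53 (SE 0.24, 0.43 without gel 1). Cytosolic ribosomal protein genes were above 0 in 25 of 29 with a median of 0.23, which was 0.04 without gel 1, and gel 1 was the highest of the 10 operated libraries in 21 of the 29. RPLP0, of the ribosomal stalk, stood at 112, 96.4, 67.4, 77.7 and 88.8 CPM after repair only. With the gel RPLP0 was at 201, 100.4, 97.5, 121 and 132 CPM (0.56, SE 0.19, 0.35 without gel 1). PPARGC1A, the coactivator of mitochondrial genes, was 25.3, 46.6, 25.8, 87.5 and 33.6 CPM after repair only. With the gel PPARGC1A was 7.91, 32.9, 41.3, 32.02 and 38.6 CPM, gel 1 being the lowest (-0.51, SE 0.41, -0.27 without gel 1, -0.10 without repair 4).

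Genes of muscle atrophy had a median of 0.06 (0.11 without gel 1), with 12 of 17 above 0. The ubiquitin ligase genes FBXO32 and TRIM63, which mark wasting fibres, gave 0.06 (SE 0.33, 0.21 without gel 1) and 0.06 (SE 0.24, -0.13 without gel 1). FBXO32 was 439, 1040, 474, 1015 and 1079 CPM after repair only and 468, 898, 1102, 1158 and 605 CPM with the gel, and both signs occurred when single libraries were left out. FOXO1, a transcription factor that drives these ligases, was 31.01, 33.2, 26.3, 31.8 and 32.5 CPM after repair only. With the gel FOXO1 was 9.73, 21.8, 23.7, 21.03 and 22.8 CPM, and all gel libraries were below all repair-only ones (-0.64, SE 0.21, -0.47 without gel 1). Uninjured muscles covered 20.96 to 45.2 CPM. FBXO30 gave -0.59 (SE 0.22, -0.39 without gel 1), FBXO31 0.58 (SE 0.21, 0.25 without gel 1) and the autophagosome gene MAP1LC3B 0.49 (SE 0.17, 0.26 without gel 1). MSTN, myostatin, the brake on muscle growth, averaged 26.7 ± 17.4 CPM with the gel and 13.9 ± 7.55 CPM after repair only (SD, n = 5 each), a difference of 0.95 (SE 0.58, 1.21 without gel 1).

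Markers of regeneration and of the nerve-muscle contact were mixed. PAX7, the satellite cell regulator, was 2.39, 3.02, 2.96, 2.601 and 2.17 CPM after repair only. With the gel PAX7 was 6.39, 2.61, 1.77, 3.08 and 3.17 CPM (0.36, SE 0.33, 0.02 without gel 1), and MYOG, of differentiating muscle cells, gave 0.13 (SE 0.19, 0.08 without gel 1). HEYL, a Notch effector in satellite cells and vessels, was 17.1, 21.9, 21.4, 17.6 and 22.6 CPM after repair only and 46.05, 27.7, 31.8, 29.2 and 24.02 CPM with the gel, without overlap (0.66, SE 0.20, 0.48 without gel 1). Relative to the own uninjured muscle HEYL was at 0.29, and the uninjured muscles of the gel animals were at 0.29 relative to those of the repair animals. VCAM1, an adhesion molecule of satellite and endothelial cells, gave -1.12 (SE 0.40, -0.90 without gel 1, -0.65 without repair 1). MYH3, the embryonic myosin of regenerating fibres, was 206, 129.6, 358, 297 and 227 CPM after repair only. With the gel MYH3 was 117, 198, 238, 154 and 126 CPM (-0.55, SE 0.27, -0.45 without gel 1, -0.37 without repair 3). The developmental sarcomere list turned with gel 1, from a median of 0.18 to -0.45 without it. It was 0.67 in uninjured muscle and -1.79 relative to the own uninjured muscle, where 1 of the 11 members was above 0. CHRNA1, a subunit of the acetylcholine receptor that spreads in denervated fibres, was 17.9, 12.4, 20.9, 4.09 and 12.6 CPM after repair only. With the gel CHRNA1 was 45.9, 14.8, 9.55, 12.9 and 19.9 CPM (0.59, SE 0.44, 0.07 without gel 1). RAPSN, which anchors that receptor, gave 0.50 (SE 0.23, 0.17 without gel 1). Among Schwann cell markers CDH19, a cadherin, was 40.1, 12.6, 54.8, 19.7 and 34.9 CPM after repair only and 10.3, 11.8, 7.7, 8.72 and 22.7 CPM with the gel (-1.41, SE 0.42, -1.35 without gel 1), while MBP, of myelin, was 7.995, 5.17, 3.97, 5.05 and 4.999 CPM after repair only. With the gel MBP was 19.9, 7.69, 5.31, 9.38 and 7.93 CPM (0.88, SE 0.27, 0.48 without gel 1). The defining marker SOX10 (0.59, SE 0.52, 0.06 without gel 1) had a p over 0.05.

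Immediate early genes, which respond within minutes to stress and handling of tissue, were lower in 12 of 14 members (median -0.79, -1.05 without gel 1, -0.43 without repair 5). Their summed level was 519.6, 299, 709, 493 and 1911 CPM after repair only and 616, 577, 173, 301 and 429 CPM with the gel, and repair 5 alone exceeded the uninjured range of 167 to 924 CPM. NR4A3, a nuclear receptor induced by exercise and stress, was 2.51, 14.6, 4.303, 52.99 and 132 CPM after repair only. With the gel NR4A3 was 1.05, 2.68, 3.23, 1.76 and 4.53 CPM. Its difference of -3.94 (SE 1.01, -3.75 without gel 1) was -2.79 without repair 5 and -1.81 relative to the own uninjured muscle, and uninjured muscles covered 1.86 to 48.8 CPM. MYC gave -1.27 (SE 0.46, -1.21 without gel 1) and -0.68 without repair 5, and ATF3, a stress-induced transcription factor, -1.48 (SE 0.64, -1.51 without gel 1). Interferon response genes were above 0 in 10 of 13 (median 0.35, 0.37 without gel 1), but gel 5 was the highest operated library in 11 of the 13, the median was -0.22 without it, and the uninjured muscles of the gel animals were at 0.47. Gel 5 and uninjured 10, which share animal code 49, had the highest mean log2 CPM of these genes, at 3.35 and 3.24. Repair 1 came next, at 2.19. Among core clock genes CRY1 gave -0.44 (SE 0.20, -0.28 without gel 1) and CRY2 0.40 (SE 0.19, 0.20 without gel 1), with a list median of 0.07 (0.14 without gel 1). Cell cycle genes had a median of -0.05 (0.12 without gel 1), with 11 of 25 tested and MKI67, the proliferation marker, too low to test.

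Many of these values moved when each operated muscle was taken relative to its animal's own uninjured muscle. The median of macrophage markers was -0.29 instead of -0.64, that of tenocyte markers -0.79 instead of -1.34, that of basement membrane genes -0.23 instead of -0.38 and that of lipogenesis and lipolysis genes -0.02 instead of -0.25. Interferon response genes were at -0.18 instead of 0.35, and ribosomal protein genes at 0.05 instead of 0.23. Collagen chains (-0.71), small proteoglycans (-1.25) and fat cell genes (-0.81) stayed within 1.5 times of the medians given above. Among single genes THBS4 was at -0.47, LEP at -0.69, MAP3K7CL at -1.09, DCN at -0.37, PPARG at -0.53 and DPT at -0.45, each closer to 0 than its difference between the groups. CYP27A1 (0.38), MIF4GD (0.41), RPLP0 (0.18), CHRNA1 (0.13), NID1 (-0.34) and LAMA2 (-0.30) were also closer to 0 by that measure. Other values moved away from 0. The median of fast fibre genes was 0.78 instead of 0.54, and that of glycolysis and glycogen genes 0.61 instead of 0.35. PVALB was at 1.58 instead of 0.68, ACTN3 at 1.47 instead of 0.85 and MYLK2 at 1.10 instead of 0.64. On the lower side CDH19 was at -1.77 instead of -1.41, CD68 at -0.92 instead of -0.64 and DNAJB4 at -1.16 instead of -0.80.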

How the data were processed

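Bulk RNA was sequenced from rabbit supraspinatus muscle, and per the labels' protocols a commercial laboratory prepared the libraries. The authors deposited 1 file of raw counts per library, and the submitters' processing notes name STAR, edgeR and the OryCun2.0 build without versions of the tools. The second column of each file was used as it stands. No source names the counter or its strand setting, so a gene and its antisense partner cannot be told apart. Of 18210 entries per file, 15 with 7 repeated symbols were summed, which left 18202 genes. Libraries were grouped by their labels. No pair of libraries within a group was identical (lowest chi-square per degree of freedom 9.85 over 65 pairs).

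Counts were tested with edgeR 4.0.16 in R 4.3.3 (TMM, filterByExpr, robust glmQLFit and glmQLFTest, Benjamini-Hochberg threshold 0.05) over all 20 long-term libraries, 11625 genes, so that the groups share one estimate of the spread. On simulated counts with known changes in this comparison, 69% of 100 genes changed 2-fold and 95% of 100 changed 4-fold were called, with 10 false calls. The simulated counts took each gene's spread from the real libraries but held no outlying library and no shared animals. These shares may therefore not hold for the real libraries. Values per library are TMM-scaled CPM. DESeq2 1.42.0, limma 3.58.1 (voom), other filters and scalings, blocks and leaving out each operated library were the alternatives. The animal codes pair operated with uninjured muscle: deviations from the group means correlated at -0.262 to 0.382 with those of the own uninjured muscle, which was the best match for 4 of 10.

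Members and lists were chosen with earlier results of these data known. The genes named are the 10 with the smallest p in each direction (symbol not a LOC number, mean log2 CPM of at least 1), up to 2 per list and direction at an unadjusted p under 0.05, and a panel of 30 genes, of which 2 are not analysed here. Further list members were named as examples after their values were seen. A few genes covered by these rules are not reported here. No sequences were used.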

Additional observations from a re-analysis of the deposited data

Results flagged for a closer look

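A value is given here where 1 library of a group of 5 lay far from its nearest neighbour relative to the range of the group, by Dixon's criterion at the 95% level, which chance meets in about 1 in 20 groups. Of 164 groups examined 27 met it, 14 of them through gel 1.

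In gel 1 the summed CPM was the highest of the gel group for 7 lists: 318 for collagen cross-linking and folding enzymes (next 253), 253 for tenocyte markers (next 121), 92 for alternative macrophage genes (next 56.4), 13507 for pericyte and smooth muscle markers (next 5687), 14419 for satellite cell and myogenic regulators (next 7226), 27660 for heat shock genes and chaperones (next 14412) and 5727 for cytosolic ribosomal proteins (next 3173). It was the lowest for small leucine-rich proteoglycans, at 312 CPM (next 536). The pericyte and satellite lists both hold the fibre gene DES, which made up most of their sums in gel 1. DES was 12750 CPM in gel 1 and 3493, 3603, 3661 and 4849 CPM in gel 2 to 5. By the mean log2 CPM of tested members, gel 1 was the lowest gel library in the satellite list (5.275) and the highest in the pericyte list (6.028). By that measure gel 5 was above gel 1 for alternative macrophage genes (1.934 against 1.708) and for heat shock genes (8.076 against 7.808). For small proteoglycans gel 4 (2.966) was below gel 1 (3.208). Gel 1 remained the highest for cross-linking enzymes (3.489), tenocyte markers (4.906) and ribosomal proteins (5.775). Among single genes gel 1 was the highest for XBP1 (101 CPM), PPP1R37 (32.8 CPM), MIF4GD (166 CPM) and CHRNA1 (45.9 CPM), and the lowest for DCN (129 CPM) and PPARGC1A (7.91 CPM). Gel 2 was the highest for FABP4 (106 CPM, next 69.7) and gel 5 for POSTN (12.9 CPM, next 6.74).

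In the repair-only group repair 4 was the highest for THBS1 (107 CPM), SPP1 (13.8 CPM), THBS4 (409 CPM) and FMOD (236 CPM). Repair 1 was the highest for LEP (17.4 CPM) and for summed lipogenesis and lipolysis genes (1232 CPM, next 995). Repair 5 was the highest for summed immediate early genes (1911 CPM, next 709), genes of the citric acid cycle and of fatty acid oxidation (16238 CPM, next 11333) and Kruppel-like factors (731 CPM, next 488) and for TRIM63 (244 CPM, next 134). Repair 3 was the lowest for PPP1R37 (12.2 CPM, next 13.4).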

How the results depend on the processing

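DESeq2 called 7 genes and every other alternative, run with edgeR or limma, called 0, as did leaving out any 1 operated library. At an unadjusted p under 0.05 the 1653 genes (919 higher, 734 lower) became 866 (404 and 462) with the 10 compared libraries alone and 721 (292 and 429) relative to the own uninjured muscle. With voom and quality weights 823 were higher and 1076 lower, with voom and the animal as a random effect, chosen after seeing the data, 709 and 792, and without gel 1 and uninjured 4, also chosen after seeing the data, 474 and 714. Leaving out 1 library gave 896 to 2273 genes, 445 to 1266 higher and 419 to 1007 lower; the lowest counts came without repair 3 (total and lower) and without gel 1 (higher), and the highest without gel 5. Replicate numbers did not pair the groups: deviations of same-numbered libraries correlated at 0.098, 0.031, -0.142, 0.038 and 0.052, and only number 1 matched itself best. The replicate block gave 604 genes (255 higher, 349 lower) and called 0.

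Of the log2 differences of named genes, 11 values changed sign under an alternative and 12 when 1 library was left out. MYH4, at -0.0034, was 0.0091 with DESeq2 size factors, 0.0089 with DESeq2, 0.36 with voom, 0.0079 without a filter, 0.62 relative to the own uninjured muscle, 0.20 without gel 1 and uninjured 4 and -0.18 to 0.22 with 1 library left out. Relative to the own uninjured muscle PDGFRA was 0.05 (-0.43 to 0.0097 with 1 left out), PAX7 -0.10 and PPARGC1A 0.14. TRIM63 was -0.081 with voom, -0.13 without gel 1 and uninjured 4 and -0.13 to 0.32 with 1 left out, and FBXO32 was -0.095 to 0.21 with 1 left out. The cause of these changes was not tested. At this depth and number of libraries, differences under 2-fold may not have been detectable. Larger fitted differences, such as NR4A3 (-3.94, SE 1.01) and COL11A1 (-3.38, SE 0.88), did not pass the edgeR threshold either.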

Other observations

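Vessel and chaperone genes are described here in addition. Endothelial markers were near the median of all genes, with 6 of 14 above 0 and a median of -0.02 (-0.04 without gel 1); PECAM1, the adhesion molecule of vessel lining, gave -0.10, SE 0.12, -0.09 without gel 1. The summed endothelial level was 536 to 813 CPM with the gel, 568 to 639 CPM after repair only and 537 to 711 CPM in uninjured muscle. Pericyte and smooth muscle markers had a median of 0.16, which was -0.06 without gel 1. DLL4, the Notch ligand of sprouting vessels (0.69, SE 0.22, 0.66 without gel 1), was above every repair-only library in all gel libraries, and ANGPT2, which loosens vessels (-0.85, SE 0.26, -0.65 without gel 1), was below every one of them; both were chosen after their values were seen, among the groups of 0.877% and 0.439% of genes without overlap. Heat shock genes and chaperones had 9 of 16 below 0, near the 53.6% of all genes (median -0.07, -0.24 without gel 1). HSPA4 (-0.35, SE 0.14, -0.24 without gel 1), DNAJB4 (-0.80, SE 0.34, -0.54 without gel 1), HSPH1 (-0.86, SE 0.39, -0.61 without gel 1) and HSPD1 (-0.43, SE 0.20, -0.23 without gel 1) were lower at an unadjusted p under 0.05, where 6.31% of all genes were.

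Gel 1 itself was high in several genes that developing or denervated fibres are known to express, but not in all of them. It was the highest of the 10 operated libraries in 5 of the 11 developmental sarcomere genes tested. In MYH3, the embryonic myosin, gel 1 was the lowest of the 10, at 117 CPM (next gel 5, at 126 CPM). MYL4, an embryonic myosin light chain, stood at 23.0 CPM in gel 1, against a median of 1.19 CPM and at most 5.16 CPM in the other 19 long-term libraries. CHRND, the delta subunit of the acetylcholine receptor, stood at 50.9 CPM against at most 18.3 CPM, and CNTFR, the receptor of ciliary neurotrophic factor, at 577 CPM against at most 208 CPM. HBZ, an embryonic globin, was 104 CPM against at most 34.0 CPM. NEXN, an actin-binding protein of the muscle Z-disc, was 166 CPM in gel 1 against at least 902 CPM elsewhere. These genes were chosen by their distance in this library, which is 1 sample, and carry no test.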
